A study of Mus musculus with 8 samples.

Results

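Chromatin modifiers and remodelers were followed in osteoblasts, which build bone, taken from the calvaria of mice and cultured for 7 days under osteogenic conditions. The genes were chosen by the symbol of their array probe, from the families Kdm, Kmt, Setd, Hdac, Sirt, Kat, Smarc, Arid, Chd, Brd, Cbx, Dnmt, Tet and Ezh, together with Suz12 and Eed. The array carried 156 such probes for 97 genes, of 16593 genes with a named probe in all. Of these 97 genes, 69 were detected widely enough to be tested, among 7041 genes tested on the whole array. The knockout-labelled group held 4 arrays of Lrp5-/- cells, and the control group held 4 arrays of Lrp5+/+ cells, all on the C57Bl/6 background. Lrp5 is a coreceptor for Wnt ligands. An adenovirus for Cre or for GFP was added to the cells 48 hours before differentiation began, and which virus went to which genotype is not stated. The differentiation medium held ascorbic acid at 50 ug/ml with beta-glycerol phosphate at 10 mM. Separate animals or cultures are not named for the arrays, so the p-values reflect array-to-array spread that could be technical. Signals are normalized intensities on the log2 scale, and every difference is knockout-labelled minus control.

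Chromatin regulators set how accessible a gene is by writing, erasing and reading chemical marks on histones and DNA, or by moving nucleosomes. Acetyltransferases and deacetylases (HDACs and sirtuins) add and remove acetyl groups, methyltransferases and demethylases do the same for methyl groups, and bromodomain and chromobox proteins read these marks. In the osteoblast lineage, these enzymes act with transcription factors such as Runx2, and mouse Ezh2 and Hdac4 are both known as brakes on skeletal differentiation.

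Of the 69 chromatin genes tested, 3 passed the threshold. Dnmt3l, a catalytically inactive partner of the de novo DNA methyltransferases, rose by 0.47 log2. Kdm4b, a demethylase that removes a methyl mark of silent chromatin, rose by 0.30 log2. Ezh2, the catalytic subunit of Polycomb repressive complex 2, fell by 0.36 log2 (limma adjusted p = 0.00998, 0.0118 and 0.0352). The threshold was an adjusted p of 0.05 in limma over all 7041 genes. The 3 genes are 4.35% of the chromatin genes tested, against a background of 8.62% of all genes tested. By direction, 2 were higher (2.9%, background 3.54%) and 1 was lower (1.45%, background 5.08%). The list as a whole showed no common direction. Its median change was 0.02 log2, with 38 genes above 0 and 31 below, and the median over all genes tested was 0.00, with 3522 above and 3519 below. The median size of change, whatever its direction, was 0.12 log2 for the chromatin genes and 0.11 log2 for all genes tested.

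**Figure D1:**
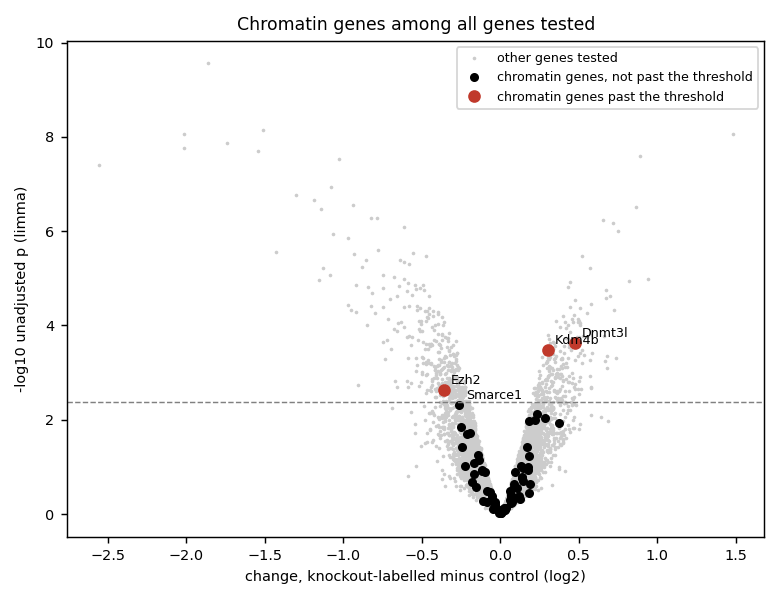
Change (x axis, knockout-labelled minus control, log2) against the unadjusted p of limma (y axis, −log10) for all 7041 genes tested. The 69 chromatin genes are drawn as large points, with the 3 past the threshold in red above the dashed line, and Smarce1 lies just under it.

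Promoter sequences are shown first for Ezh2 and Dnmt1, and for Dnmt3l, the gene with the largest change. Ezh2 and Dnmt1 were the 2 with a match to an E2F motif among the 59 tested chromatin genes that had a promoter sequence. No sequence was available for Kdm4b. E2F factors drive genes of DNA replication. The sequences are the 300 bases around an annotated start in RefSeq (GRCm38.p6), most of them before it, and capitals mark the letters TTTCGCGC or TTTGGCGC on either strand. Ezh2 had 1 annotated start, at chr6:47594981-47595280 on the minus strand, and its match began 3 bases after that start. Dnmt1 had 3, of which chr9:20952574-20952873 on the minus strand held 2 matches, and Dnmt3l had 3, of which chr10:78042037-78042336 on the plus strand is shown.
Ezh2: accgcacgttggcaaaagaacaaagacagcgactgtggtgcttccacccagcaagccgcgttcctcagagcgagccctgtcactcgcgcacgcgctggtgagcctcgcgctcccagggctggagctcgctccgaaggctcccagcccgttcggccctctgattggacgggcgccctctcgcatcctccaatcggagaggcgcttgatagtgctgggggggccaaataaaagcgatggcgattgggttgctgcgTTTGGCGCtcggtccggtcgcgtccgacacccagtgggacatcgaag
Dnmt1: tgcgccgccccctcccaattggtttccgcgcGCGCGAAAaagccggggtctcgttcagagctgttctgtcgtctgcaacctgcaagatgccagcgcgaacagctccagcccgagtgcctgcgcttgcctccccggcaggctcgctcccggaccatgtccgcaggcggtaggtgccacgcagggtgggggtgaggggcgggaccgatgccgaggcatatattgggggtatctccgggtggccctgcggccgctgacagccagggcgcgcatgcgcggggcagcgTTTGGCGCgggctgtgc
Dnmt3l: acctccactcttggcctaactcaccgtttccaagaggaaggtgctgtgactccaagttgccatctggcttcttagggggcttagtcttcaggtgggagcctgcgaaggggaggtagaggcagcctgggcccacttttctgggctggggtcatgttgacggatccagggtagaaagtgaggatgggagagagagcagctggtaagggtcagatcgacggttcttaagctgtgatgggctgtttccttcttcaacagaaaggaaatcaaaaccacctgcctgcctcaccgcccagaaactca
The Ezh2 sequence holds 31 CpG dinucleotides and the Dnmt1 sequence 33, against 6 in that of Dnmt3l. At the other starts of Dnmt3l there were 4 and 3. The median was 22 over the 85 promoters of the 59 chromatin genes that matched by symbol, and 21 over the 7485 promoters of all genes tested. The motif was found in 2 of those 85 promoters (2.35%), in 1.54% of promoters of all genes tested and in 0.813% of the 32851 promoters listed. A match describes these letters only, and its part in any change was not tested. Ezh2 fell, and Dnmt1, with 2 matches, differed by 0.14 log2 without passing.

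Before the results by family, the groups and the labels were checked. Between 9685 and 10363 probes were detected per array, 81 to 90 of them on the chromatin list. Over detected probes, the Pearson correlation of 2 arrays averaged 0.994 inside a group and 0.99 across groups. The single Lrp5 probe stood near background. Its signal was 5.63, 5.66, 6.07 and 6.10 log2 on knockout-labelled arrays 1 to 4, against 5.43, 5.70, 5.48 and 5.53 on control arrays. The difference of 0.33 log2 did not pass the test (exact two-sided permutation p = 0.0857, where the smallest p possible is 0.0286). Whether the deletion takes out the stretch that this probe reads is not given, and the genotype labels are therefore not tested by it. Among osteoblast markers, Col1a1, Sp7 and Alpl were detected on all 8 arrays and Ibsp on 5, while Bglap, Dmp1, Phex and Bmp2 were detected on none. The 4 tested all lay above 0, with a median of 0.16 log2, and limma called 0 of them. Their mean was 8.77 to 8.96 log2 in knockout-labelled arrays. It was 8.78, 8.81, 8.60 and 8.28 in control arrays 1 to 4, so the groups overlapped and control array 4 was the lowest. Ibsp differed by 0.58 log2 (limma adjusted p = 0.07) and was detected on 4 knockout-labelled and 1 control arrays. Endothelial and muscle markers were detected on none. Of 4 chondrocyte markers, 2 were tested. Col2a1, the collagen of cartilage, rose by 0.45 log2 with no overlap between the groups (limma adjusted p = 0.00757), and Sox9, a cartilage transcription factor, differed by 0.20, while Acan and Col10a1 did not pass the detection filter. The part of these markers in the results below was not tested.

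Dnmt3l had the largest change of the list, and both of its probes moved alike. The probe with the higher signal read 8.60, 8.56, 8.80 and 8.66 log2 in knockout-labelled arrays, against 8.20, 8.04, 8.09 and 8.39 in control arrays. Every knockout-labelled array lay above every control array, and control array 4 was the closest. The means were 8.65 ± 0.10 log2 in knockout-labelled arrays and 8.18 ± 0.15 in control arrays (SD, n = 4 each), a 1.39-fold rise (0.47 log2, SE 0.09, 95% interval 0.28 to 0.66). The other probe of Dnmt3l read 8.51, 8.75, 8.64 and 8.39 in knockout-labelled arrays, against 8.01, 7.98, 8.06 and 8.41 in control arrays. Here control array 4 overlapped the knockout-labelled range, and the difference was 0.46 log2 (limma adjusted p = 0.0358 over all 9443 named probes detected).

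The other DNA methylation enzymes on the array did not pass the test. Dnmt1, which copies methylation onto newly made DNA, stood at 7.85 ± 0.05 log2 in knockout-labelled arrays and 7.71 ± 0.16 in control arrays (SD, n = 4 each). Its difference of 0.14 log2 had a 95% interval of −0.04 to 0.32 (adjusted p = 0.294). Dnmt3b, a de novo methyltransferase, differed by 0.01 log2 with a wide interval of −0.35 to 0.36. The 2 probes each of Dnmt3a, the other de novo methyltransferase, and of Tet3, which oxidises methylated cytosine, were detected on no array. The signal of Dnmt3l relative to the mean of Dnmt1 and Dnmt3b on the same array was 0.40 log2 higher in knockout-labelled arrays (exact two-sided permutation p = 0.0571). That comparison was chosen after the values were seen, so it is not separate support for the call of Dnmt3l.

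Among the Polycomb genes, the enzyme subunit fell and its partners did not pass the test. Ezh2 read 7.36, 7.35, 7.34 and 7.68 log2 in knockout-labelled arrays, against 7.65, 7.81, 7.91 and 7.81 in control arrays. Knockout-labelled array 4 stood apart from the other three and lay above control array 1, so the groups overlapped. The means were 7.43 ± 0.16 and 7.79 ± 0.10 log2 (SD, n = 4 each) in knockout-labelled and control arrays, a 1.28-fold fall (−0.36 log2, SE 0.09, 95% interval −0.56 to −0.16). The call was lost without any 1 of 6 arrays, knockout-labelled 1, 2 or 3 and control 2, 3 or 4 (limma adjusted p from 0.0548 to 0.0921). It was also lost with the replicate number as a block (0.0536) and with no detection filter (0.0771). Of the other Ezh2 probes, both were detected on no array.

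Eed and Suz12, the core partners that Ezh2 needs for activity, gave narrow intervals around 0. Eed stood at 8.90 ± 0.08 log2 in knockout-labelled arrays and 8.84 ± 0.14 in control arrays, and Suz12 at 10.34 ± 0.08 in knockout-labelled arrays and 10.37 ± 0.09 in control arrays (SD, n = 4 each). Their differences were 0.07 (95% interval −0.11 to 0.24) and −0.04 (−0.19 to 0.11). Ezh1, the second enzyme of the complex, was not detected on any array. Relative to the mean of Eed and Suz12 on the same array, the Ezh2 signal was 0.38 log2 lower in knockout-labelled arrays (exact two-sided permutation p = 0.0571). That comparison too was chosen after the values were seen and is not separate support for the call of Ezh2. Of 4 chromobox genes of Polycomb repressive complex 1, Cbx2, Cbx6 and Cbx7 were not detected, and Cbx8 differed by −0.04 log2 (95% interval −0.29 to 0.22). Of the heterochromatin proteins, Cbx5 differed by −0.16 (−0.35 to 0.02) and Cbx1 by −0.18 without passing (adjusted p = 0.252 and 0.423), and Cbx3 was not detected. Cbx1 was detected on 1 knockout-labelled and 3 control arrays.

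**Figure D2:**
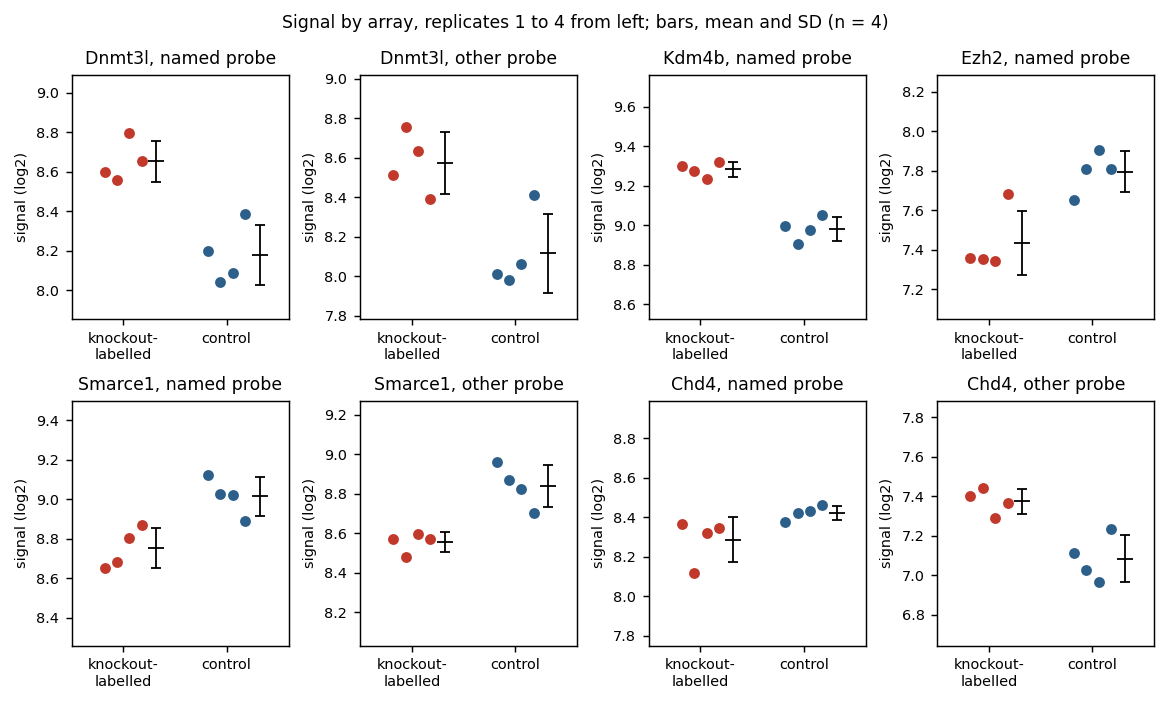
Signal (y axis, log2) on each of the 4 knockout-labelled and 4 control arrays for detected probes of Dnmt3l, Kdm4b, Ezh2, Smarce1 and Chd4. Means and SDs are drawn as bars (n = 4). Both Dnmt3l probes were higher in knockout-labelled arrays, and the 2 Chd4 probes drawn differed in opposite directions. The remaining detected Chd4 probe, which differed by −0.17 log2 like the named one in direction, is not drawn.

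Genes of the cell cycle were lower alongside Ezh2. Of 15 cell cycle genes tested, all lay below 0 and 6 fell, against 5.08% of all genes tested that were lower. Their median was −0.36 log2, against 0.00 over all genes tested. Mcm2, a subunit of the replicative helicase, fell by 0.70 log2, and Cdk1, the mitotic kinase, fell by 0.33 (limma adjusted p = 0.00293 and 0.044). The mean of the 15 genes lay between 8.07 and 8.16 log2 in knockout-labelled arrays and between 8.31 and 8.63 in control arrays, with no overlap. Their summed signal on the linear scale was 5440 to 5733 in knockout-labelled arrays and 6430 to 8054 in control arrays. Ccna2 and Plk1 of the same list were detected on no array. Macrophage markers were also lower. Of 6 tested, all were below 0 and 2 passed, against the same background of 5.08%. Cd74, a chaperone of antigen presentation, fell by 1.74 log2 and Laptm5 fell by 0.47, with a summed signal of 2824 to 3443 in knockout-labelled arrays and 3793 to 4151 in control arrays. Itgam, Ptprc and Fcer1g were not detected on any array. The part of either list in the fall of Ezh2 was not tested. In such mixed RNA, fewer cells of a type and less RNA per cell cannot be told apart.

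Changes of the demethylases ran from −0.22 to 0.37 log2, and 1 of 9 tested passed, against 8.62% of all genes tested. Kdm4b read 9.30, 9.28, 9.23 and 9.32 log2 in knockout-labelled arrays, against 8.99, 8.90, 8.97 and 9.05 in control arrays. The groups did not overlap, and the arrays within each group lay close together. The means were 9.28 ± 0.04 and 8.98 ± 0.06 log2 in knockout-labelled and control arrays (SD, n = 4 each), a 1.23-fold rise (0.30 log2, SE 0.06, 95% interval 0.17 to 0.43). The 2 other probes of Kdm4b were detected on no array. In human mesenchymal stromal cells, KDM4B and KDM6B are known to favour osteogenic differentiation. Kdm6b, which erases the mark that Ezh2 writes, differed by −0.14 log2 (95% interval −0.29 to 0.00), and its X-linked relative Kdm6a by 0.09 (−0.03 to 0.22), neither past the threshold.

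The other demethylases did not pass either. Kdm4c, a close relative of Kdm4b, stood at 6.17 ± 0.24 log2 in knockout-labelled arrays and 6.39 ± 0.17 in control arrays (SD, n = 4 each), a difference of −0.22 (adjusted p = 0.278). The signal of Kdm4b relative to Kdm4c on the same array was 0.52 log2 higher in knockout-labelled arrays, with no overlap (exact two-sided permutation p = 0.0286, the smallest possible). This comparison and the 2 for Ezh2 and Dnmt3l above were chosen after their values were seen. Each had a Benjamini-Hochberg adjusted p of 0.0571 over the 3. Each starts from a gene already called on these same arrays, and the adjustment does not cover that choice. None of the 3 is therefore separate support for its call. Kdm5b, which removes a mark of active promoters, differed by 0.37 log2, but it was detected on 3 knockout-labelled and 1 control arrays and did not pass (adjusted p = 0.0875). Of 15 alternative fits that held Kdm5b it passed in 1 (0.028), with adjusted p up to 0.199. That fit left out knockout-labelled array 4, the lowest of its group for this gene. Kdm1a, the demethylase of the CoREST complex, differed by −0.04 log2 with an interval of −0.17 to 0.09. Of 14 demethylase genes on the array, 9 were tested. Kdm2b, Kdm4d and Kdm5d were detected on no array, Kdm5c on 1 and Kdm4a on 3.

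Histone methyltransferases lay mostly a little above 0, and none passed. Of 11 on the array, 9 were tested, 8 were above 0, and their median was 0.12 log2. Kmt5c, which places a methyl mark of heterochromatin, stood at 7.24 ± 0.10 log2 in knockout-labelled arrays and 7.01 ± 0.08 in control arrays (SD, n = 4 each) with no overlap, a difference of 0.23 (adjusted p = 0.0672). Its paralog Kmt5b differed by 0.13 and Kmt5a, which makes the monomethyl mark that both build on, by −0.12 (adjusted p = 0.274 and 0.321). Changes of at least 0.5 log2 lay outside the 95% interval of each of the 9. Setd4 and Setd7 were not detected on any array. With 9 genes of the family tested, limma called 0. At an unadjusted p under 0.05 there was 1, Kmt5c (11.1%, against 25.8% of all genes tested).

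The deacetylases, both HDACs and sirtuins, gave 0 calls among the 15 genes tested in limma. At an unadjusted p under 0.05 there were 1 of 9 HDACs (11.1%) and 3 of 6 sirtuins (50%), against 25.8% of all genes tested. Hdac4, which restrains Runx2 in mouse chondrocytes, stood at 6.18 ± 0.11 log2 in knockout-labelled arrays and 5.96 ± 0.07 in control arrays (SD, n = 4 each) with no overlap, a difference of 0.22 (adjusted p = 0.0802). The class II relatives Hdac5 and Hdac7 differed by 0.07 and 0.18 (adjusted p = 0.676 and 0.305). Hdac1, Hdac2 and Hdac3, the enzymes of the nuclear corepressor complexes, differed by 0.04, −0.10 and 0.00, with 95% intervals of −0.20 to 0.28, −0.23 to 0.03 and −0.14 to 0.15. As with the histone methyltransferases, 8 of the 9 HDACs tested lay above 0, with a median of 0.15 log2. Among them, Hdac6 and Hdac10 were detected on 4 knockout-labelled arrays each, and on 2 and 3 control arrays. Their 95% intervals were wide, −0.24 to 0.61 and −0.14 to 0.52. Hdac9 and Hdac11 were not detected.

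Sirtuins were tested for 6 genes, of which Sirt6 lay above 0 and the other 5 below. Sirt6, a nuclear deacetylase with a role in DNA repair and glucose metabolism, differed by 0.28 log2, and it was detected on 3 knockout-labelled and 1 control arrays (adjusted p = 0.0748). Sirt1, the best known of the family and a nuclear deacetylase, differed by −0.21 log2 (95% interval −0.38 to −0.04, limma adjusted p = 0.116). Of 20 alternative fits it passed in 1, without control array 4 (0.0366), with adjusted p up to 0.252. Sirt2, mostly cytoplasmic, differed by −0.19 with no overlap between the groups (adjusted p = 0.114). The mitochondrial Sirt3 and Sirt5 differed by −0.03 and −0.05.

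**Figure D3:**
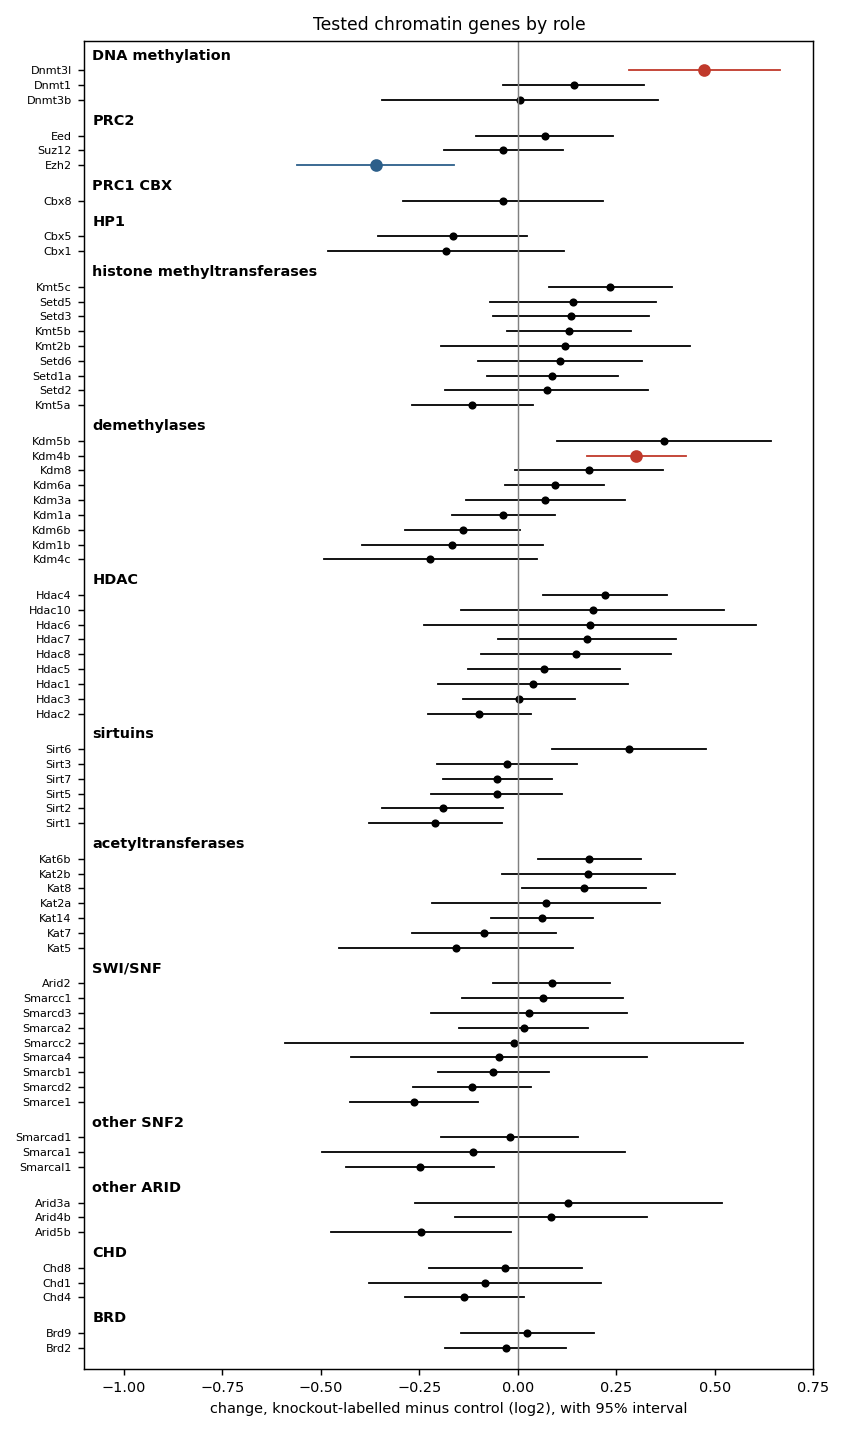
Change of each of the 69 chromatin genes tested (x axis, knockout-labelled minus control, log2; lines, 95% intervals), grouped by role. The 3 genes past the threshold are drawn larger, in red for Dnmt3l and Kdm4b and in blue for Ezh2, and most intervals cross 0.

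Acetyltransferases were tested for 7 genes, and limma called 0 of them. An unadjusted p under 0.05 was reached by 2 (28.6%), against 25.8% of all genes tested. Kat6b, a catalytic subunit of a complex that acetylates histone H3 and is mutated in human skeletal syndromes, stood at 8.02 ± 0.08 log2 in knockout-labelled arrays and 7.84 ± 0.02 in control arrays (SD, n = 4 each) with no overlap. Its difference was 0.18 (95% interval 0.05 to 0.31; adjusted p = 0.0829). Kat8 and Kat2b differed by 0.17 and 0.18 (adjusted p = 0.168 and 0.281).

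In the SWI/SNF remodeler, which slides and evicts nucleosomes, 1 of 9 tested subunits came close to the threshold. Smarce1, a DNA-binding accessory subunit, read 8.65, 8.68, 8.80 and 8.87 log2 in knockout-labelled arrays, against 9.12, 9.03, 9.02 and 8.89 in control arrays. The groups did not overlap, though knockout-labelled array 4 and control array 4 nearly met. The difference of −0.26 log2 (SE 0.07) did not pass (adjusted p = 0.0528). The second probe of Smarce1 read 8.57, 8.48, 8.60 and 8.57 in knockout-labelled arrays, against 8.96, 8.87, 8.82 and 8.70 in control arrays, again with no overlap. With each probe tested on its own it passed (−0.28 log2, limma adjusted p = 0.0374 over all probes), and the named probe did not (0.0629). The alternative ATPases Smarca4 and Smarca2 differed by −0.05 (95% interval −0.42 to 0.33) and 0.01 (−0.15 to 0.18), and the core subunit Smarcb1 by −0.06 (−0.20 to 0.08). Arid1a and Smarcd1 were not detected on any array, and Arid2, which marks a variant of the complex, differed by 0.09, and Smarcd2 by −0.12 (adjusted p = 0.451 and 0.305).

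Other remodelers and ARID proteins did not pass. Smarcal1, which anneals DNA strands at stalled replication forks, stood at 6.73 ± 0.11 log2 in knockout-labelled arrays and 6.98 ± 0.14 in control arrays (SD, n = 4 each). Its difference was −0.25 (limma adjusted p = 0.096). Of 20 alternative fits Smarcal1 passed in 1, without control array 1 (0.0461), with adjusted p up to 0.208. Smarca1 and Smarcad1 differed by −0.11 and −0.02. Arid5b, a cofactor in fat and cartilage cell differentiation in mice, differed by −0.25 (95% interval −0.47 to −0.02; adjusted p = 0.164). Arid3a and Arid4b differed by 0.13 and 0.08. Arid3b, Arid3c, Arid4a and Arid5a were detected on no array.

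In the CHD family, the probes of Chd4 disagreed. Chd4 is the ATPase of the NuRD complex, which joins nucleosome remodeling to deacetylation. Its named probe read 8.37, 8.12, 8.32 and 8.34 log2 in knockout-labelled arrays, against 8.37, 8.42, 8.43 and 8.46 in control arrays, a difference of −0.14 (limma adjusted p = 0.236). Another probe read 7.40, 7.44, 7.29 and 7.37 in knockout-labelled arrays, against 7.11, 7.03, 6.97 and 7.24 in control arrays, so that its groups were apart in the opposite direction. That probe differed by 0.29 log2 and passed when each probe was tested on its own (limma adjusted p = 0.0417), while the remaining probe differed by −0.17 (0.287). No direction is therefore given for Chd4. Chd1 and Chd8 differed by −0.08 and −0.03 (adjusted p = 0.74 and 0.863). The bromodomain genes Brd2, a reader of acetylated histones, and Brd9, a subunit of a SWI/SNF variant, differed by −0.03 (95% interval −0.18 to 0.12) and 0.02 (−0.15 to 0.19).

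Of the 69 genes, 12 had more than 1 detected probe. In 7 of them all probes differed in the same direction as the named one, and in 5 (Brd2, Chd4, Kdm3a, Kmt5a and Sirt5) they did not. Taken probe by probe, 6 of 85 detected chromatin probes passed (7.06%), against 7.22% of all named probes detected. Of these 6, 2 were lower, against 4.11% of all named probes detected. They were both probes of Dnmt3l, 1 each of Kdm4b and Ezh2, the second probe of Smarce1 and the rising probe of Chd4.

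**Figure D4:**
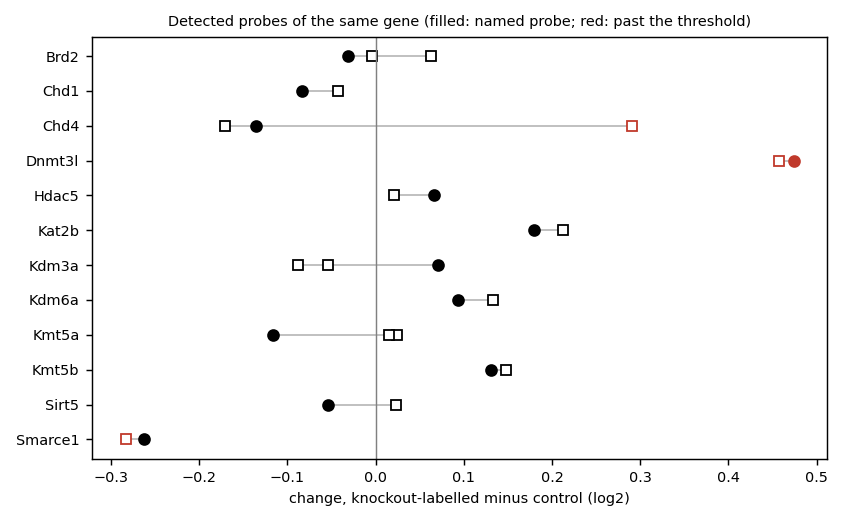
Change of every detected probe (x axis, knockout-labelled minus control, log2) for the 12 chromatin genes with more than 1, the named probe as a filled circle and others as open squares, in red where the probe passed on its own. The probes of Dnmt3l lie together near 0.47, while those of Chd4 span 0.

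For 8 of the 69 genes, knockout-labelled and control values were fully apart (11.6%), against 16.8% of all genes tested. An unadjusted p under 0.05 was reached by 14 (20.3%), against 25.8%. These shares describe the 69 genes that passed the detection filter. For 62 of the 69, the 95% interval lay wholly between −0.5 and 0.5 log2, and for 17 between −0.25 and 0.25, so that changes beyond those sizes were outside the interval. With 4 arrays a group, smaller changes were resolved for only some genes, the 3 past the threshold among them. The median half-width of the interval was 0.19 log2. The 28 chromatin genes not tested were mostly below detection, 24 on every array, 2 detected on 1 array, 1 on 2 and 1 on 3.

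Chromatin genes outside the chosen families were read from a separate list of partners, of which 92 had a named probe and 65 were tested. Of these 65, 1 rose and 6 fell (7 in all), and the median was −0.03 log2. The background over all genes tested was 3.54% higher and 5.08% lower (8.62% in all). Chaf1b, a subunit of the chromatin assembly factor that loads histones behind the replication fork, read 7.74, 7.53, 7.60 and 7.48 log2 in knockout-labelled arrays, against 8.42, 8.33, 8.21 and 8.11 in control arrays. The groups were far apart, with a fall of 0.68 log2 (SE 0.08; limma adjusted p = 0.00167). Nasp, a carrier of histones, fell by 0.25 log2, and Hat1, which acetylates newly made histones, fell by 0.25 (adjusted p = 0.0469 and 0.0338). Dpy30, a subunit of the complexes that methylate active promoters, fell by 0.33, the Polycomb subunit Bmi1 by 0.38 and the methyl-DNA binding protein Mbd1 by 0.25 (0.0185, 0.0364 and 0.044). Setdb1, a methyltransferase of silent chromatin, rose by 0.29 (0.046). Chaf1b passed with any 1 array left out. With 1 array left out, Dpy30 was called in 4 of 8 fits, Bmi1 and Hat1 in 2, and Mbd1, Nasp and Setdb1 in 1, with adjusted p up to 0.11.

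By sublist, 9 genes listed as methyl-DNA readers and histone chaperones were tested, among them the corepressor Trim28, which is neither. All 9 lay below 0 with a median of −0.21 log2 and 3 fell (Chaf1b, Mbd1 and Nasp). Of 5 other acetyltransferase genes tested, all lay below 0 with a median of −0.09 log2 and 1 fell (Hat1). Of 15 partners of the Polycomb complexes tested, 9 lay below 0 with a median of −0.09 and 1 fell (Bmi1). Of 11 other histone methyltransferase and COMPASS genes tested, 5 lay below 0 with a median of 0.04, 1 fell (Dpy30) and 1 rose (Setdb1). The list for the NuRD, Sin3 and CoREST complexes had 9 tested genes, among them Jmjd6, which is not a subunit of these complexes. This list, the 9 remodeler partners and the 7 arginine methyltransferases had 0 calls in limma. At an unadjusted p under 0.05 there were 0, 3 and 0, and the medians were 0.08, 0.03 and −0.04. The shares over all genes tested were 5.08% lower, 3.54% higher and 25.8% at an unadjusted p under 0.05. Whether the lists differ from each other was not tested.

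**Figure D5:**
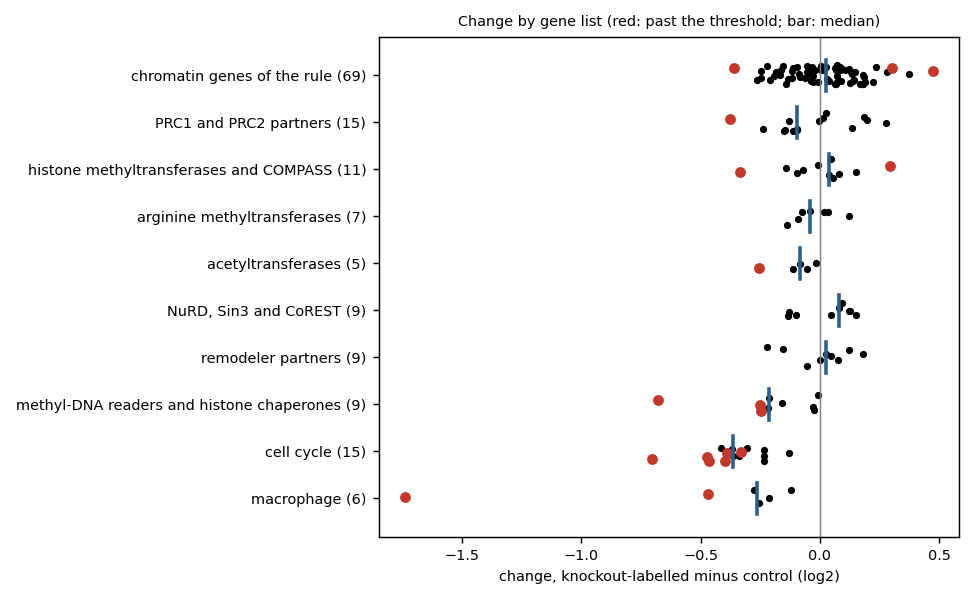
Change of each tested gene (x axis, knockout-labelled minus control, log2) in the 69 chromatin genes, in 7 lists of other chromatin genes and in the cell cycle and macrophage lists, with the number tested in brackets, calls in red and medians as bars. The median of the 69 genes lies at 0.02 and that of the cell cycle list at −0.36.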

How the data were processed

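Per the file headers, the authors deposited an intensity and a detection p-value for each of 25697 probes on 8 Illumina arrays. GenomeStudio is named in the submitters' processing notes. The deposited intensities had medians of 126 to 155 and were taken as not normalized. The deposited detection p-values rose with signal (Spearman correlation of at least 0.979), so 1 minus the column was used. A table of log2 values that the authors deposited, with 1 median on every array, served as an alternative.

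Intensities were background-corrected from the detection p-values and quantile-normalized as in neqc (limma 3.58.1, R 4.3.3, offset 16). A probe was kept if its detection p was below 0.01 on 4 or more of the 8 arrays (10004 probes). The platform annotation named 23978 probes and left 1719 unnamed. For each gene the detected probe with the highest mean was used. The 2 groups were compared by limma (lmFit, eBayes) with no covariate, and p-values were adjusted by Benjamini-Hochberg over 7041 genes. Simulated data served to test the limma comparison and its adjustment only. They were normal values drawn around the normalized gene means, so background correction, normalization, the filter and the probe choice were not tested. In 10 runs with 200 of 7041 genes changed, 22.6%, 75.8% and 98% of changes of 0.25, 0.5 and 1 log2 were recovered. Of the calls, 5.08% were false.

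The genes, lists and tests were chosen with earlier results of these data known. Genes named are those past the threshold, the 3 with the smallest p in each role, and a fixed set of well-known regulators. Of that set, Tet1, Tet2, Kdm5a, Kat6a and Chd7 were not analysed here. Other chromatin genes past the threshold are named as well. Kdm1a, Kdm4c, Sirt3, Sirt5, Hdac6 and Hdac10 were named after their values were seen. Jmjd6 and Trim28 are named only for their place in the lists. Alternatives were other background corrections, scaling, filters, probe rules, priors, array weights, the replicate number as a block, the authors' log2 table and leaving out each array. No array had the values of another.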

Additional observations from a re-analysis of the deposited data

Results flagged for a closer look

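Of 104 groups of 4 arrays looked at for the named genes, 4 had 1 array far from the other three, where about 1 in 20 groups is flagged by chance. The measure is the gap to the nearest array divided by the range of the group. Ezh2 was flagged in knockout-labelled arrays (0.967), where array 4 read 7.68 log2 and the others 7.34 to 7.36. Nasp was flagged in the same group (0.87), also for array 4, at 8.32 against 8.15 to 8.18. Smarcb1 was flagged in knockout-labelled arrays for a low array 1 (0.912), at 8.79 against 8.86 to 8.87. Dpy30 was flagged in control arrays for a low array 4 (0.909), at 9.89 against 10.10 to 10.12.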

How the results depend on the processing

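Dnmt3l and Kdm4b passed in all 20 alternatives, with changes of 0.34 to 0.54 and 0.24 to 0.33 log2. Ezh2 passed in 12 of 20 (−0.44 to −0.22 log2). It was lost with the replicate number as a block (adjusted p = 0.0536) and with no detection filter (0.0771), as well as in 6 of 8 fits with 1 array left out. Smarce1 passed in 9 of 20. The number of chromatin genes higher was 2, and 4 with each probe on its own, where 6 probes were called in all. The number lower was 1. It was 2 without background correction, with normexp and an offset of 50, with the authors' log2 table, with array weights, with a filter of detection on all 8 arrays, with the mean of probes, with each probe and with a trended robust prior, and 0 with no detection filter or the block. With 1 array left out, 2 to 5 chromatin genes were called, 2 or 3 higher and 0 to 2 lower; 5 were called without knockout-labelled array 4. Over all genes, 978 were called without background correction, 971 with the authors' log2 table, 965 with the trended robust prior, 376 with no filter and 310 to 708 with 1 array left out. It fell by over 1.5 times without knockout-labelled array 1 (400), 2 (341) or 3 (396) or control array 1 (352), 2 (310) or 3 (315). The 7 calls among other chromatin genes became 4 with the block, 2 with no filter, 4 with detection on at least 1 array and 1 to 5 with 1 array left out, being under 5 without each of the arrays but knockout-labelled array 4. The cause of these shifts was not tested. The median change of the list lay between −0.02 (without control array 4) and 0.04. Of 1025 comparisons of a named gene with an alternative, 0 reversed a call, 62 lost one and 12 gained one, and 34 changed sign with no call on either side. Same-numbered arrays of the 2 groups did not deviate together (r of −0.03 to 0.09), so the replicate number was not taken as a pairing, and under the block 2 chromatin genes were called. Detection limits the list in that 28 of 97 genes could not be tested.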
